A study of Mus musculus with 14 samples.

Results

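Fibroblasts carrying constitutively active YAP (GHMT/YAP-5SA) were compared with fibroblasts carrying constitutively active TAZ (GHMT/TAZ-4SA), gene by gene. Both groups were mouse embryonic fibroblasts (MEFs) on 8 kPa hydrogel, a soft matrix near the stiffness of heart muscle. Both had received retroviruses for the cardiac transcription factors Gata4, Hand2, Mef2c and Tbx5 (together GHMT), and differed in the active mutant added to them. RNA was taken 2 weeks after transduction and hybridised to Clariom S Mouse arrays, with 2 independent biological samples per group. They are 4 of the 14 arrays of a study of how matrix stiffness acts on the conversion of fibroblasts into induced cardiomyocytes. Whole cultures were measured, so a value averages over cells that did and did not take up every virus. The promoter that drives the mutants, their species and the sex and strain background of the embryos were not given in the sources used here. The study describes fibroblasts of mice that carry GFP under the alpha myosin heavy chain promoter, and the labels do not say whether the arrayed MEFs carried it. No cells without GHMT were among the 14 arrays.

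YAP and TAZ are a pair of related coactivators that carry signals from matrix stiffness, cell shape and the Hippo kinases to the nucleus, where they switch on genes mainly through the TEAD transcription factors. The Hippo kinases LATS1 and LATS2 phosphorylate serines on both proteins, which holds them in the cytoplasm. In YAP-5SA and TAZ-4SA such serines are changed to alanine, so the proteins escape this control. The question that the comparison addresses is whether activating one paralog leaves GHMT-treated fibroblasts in a different state from activating the other.

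The deposited values are log2 ratios to a reference that is not stated for these arrays. The reference is shared, so it cancels in the difference used throughout, the mean of the YAP-5SA arrays minus the mean of the TAZ-4SA arrays. Of 22206 features on the array, 19518 carry 1 gene symbol and have a value in all 4 arrays, and these stand for 19486 genes. Tests were made with limma over the 22127 features that have a value in all 4 arrays, and p-values were adjusted over all of them by the Benjamini-Hochberg method. A gene is said to pass the test at an adjusted p under 0.05. SE is the moderated standard error from limma, and n = 2 arrays per group throughout. The ratios carry no signal level, so genes near background could not be set aside and levels of different genes cannot be compared.

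The features past the test were 89 higher and 109 lower with YAP-5SA, which is 0.402% and 0.493% of the features tested. Those with 1 gene symbol were 82 higher and 106 lower. At shares this low, a count of 0 past the test in a short gene list is near the share of all features. With no adjustment, 1450 features higher with YAP-5SA and 1548 lower had a p under 0.05. Group means lay at least 2-fold apart upward in 157 features (0.71%) and downward in 155 (0.701%). In 4818 features (21.8%) both YAP-5SA arrays lay above both TAZ-4SA arrays, and in 5291 (23.9%) both lay below, so absence of overlap alone marks many genes in a comparison of this size. The median difference over all features was -0.0086. Across the 22127 features the YAP-5SA arrays correlated at r = 0.75, the TAZ-4SA arrays at 0.82, and arrays of different groups at 0.57 to 0.70. The YAP-5SA arrays were at least 2-fold apart in 192 features, against 63 for the TAZ-4SA arrays. Without the first YAP-5SA array 465 features passed as higher and 416 as lower, and without the second 162 and 202. Differences of at least 2-fold upward numbered 255 and 129 in these settings. Without the second TAZ-4SA array 75 passed as higher and 68 as lower. With an array left out, the lone array of a group is assumed to vary like the arrays of the other group.

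The arrays gave no check of which mutant a culture had received. Yap1 stood at 0.24 and 0.06 with YAP-5SA and -0.05 and -0.26 with TAZ-4SA, a difference of 0.30 (SE 0.16, adjusted p = 0.448). Wwtr1, which encodes TAZ, stood at 0.31 and 0.14 with YAP-5SA and 0.11 and 0.08 with TAZ-4SA, a difference of 0.13 (adjusted p = 0.753). Where the probes lie relative to the transgenes is not given, so neither value tests the labels. The 4 reprogramming factors differed by -0.31 (Gata4), -0.04 (Hand2), 0.13 (Mef2c) and 0.15 (Tbx5), and 0 of 4 passed the test. The groups are therefore named as they are labelled.

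**Figure D1:**
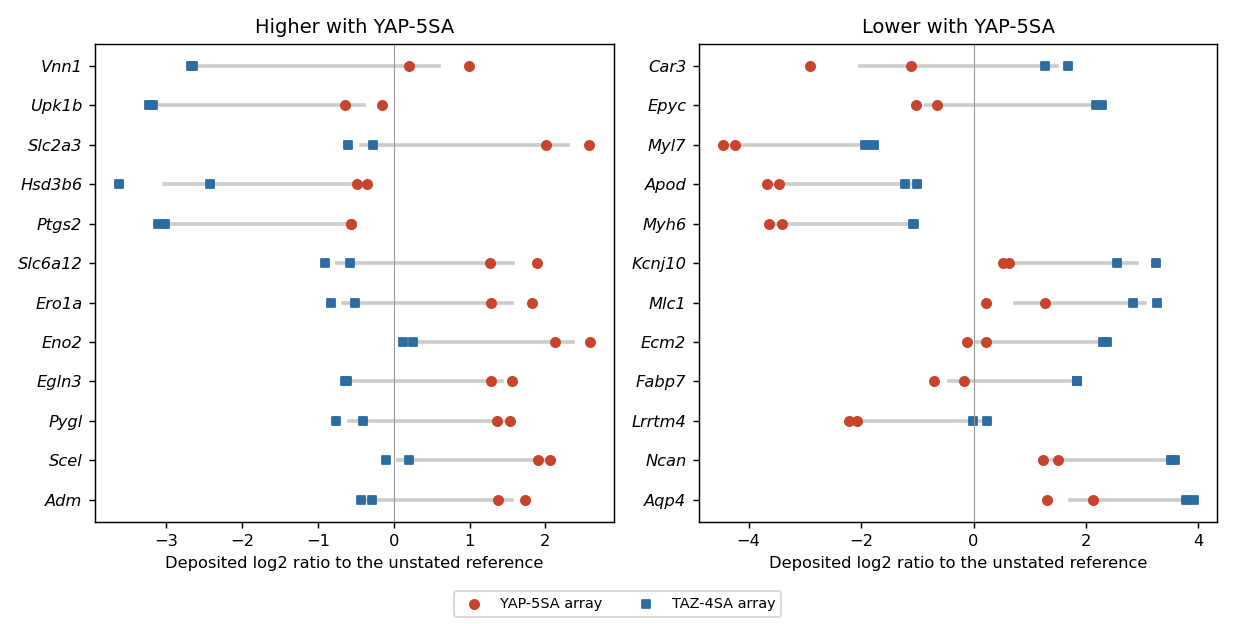
Deposited log2 ratio (x axis) of the 12 named genes with the largest difference in each direction, with YAP-5SA arrays as red circles, TAZ-4SA arrays as blue squares and a grey bar joining the group means. The naming rule took genes whose arrays do not overlap between groups, and the widest gap between arrays of a group is in Car3, at -2.91 and -1.12 with YAP-5SA.

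Of 24 measured genes of glycolysis and of the response to low oxygen, 8 passed the test as higher with YAP-5SA than with TAZ-4SA, 0 passed as lower and 16 did not pass. In hypoxia the factor HIF-1 raises glucose transporters, glycolytic enzymes and the prolyl hydroxylases that mark HIF for breakdown, and the same genes also respond to other signals. Arrays did not overlap in 22 members that were higher and 1 that was lower, against 21.8% and 23.9% of all features. Of all features 0.402% passed as higher and 0.493% as lower. The list's median difference was 0.89. The list's median ratio was 0.53 and 0.57 in the YAP-5SA arrays, against -0.15 and -0.28 in the TAZ-4SA arrays, so the arrays within each group stood close together. Without the first YAP-5SA array 13 members passed as higher and 1 as lower.

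The glucose transporter gene Slc2a3, which encodes GLUT3, had the largest difference of the list. It stood at 2.01 and 2.58 with YAP-5SA and -0.60 and -0.27 with TAZ-4SA, so it was 6.65-fold higher with YAP-5SA (log2 difference 2.73, SE 0.22, adjusted p = 0.0109). Slc2a1, which encodes GLUT1, stood at 0.46 and 0.99 with YAP-5SA and -0.59 and -0.56 with TAZ-4SA and differed by 1.30 (SE 0.20, adjusted p = 0.0469). Inside the cell hexokinase traps glucose, and Hk2 differed by 1.16 (SE 0.14, adjusted p = 0.0269). Further down the pathway Eno2, an enolase isoform, stood at 2.13 and 2.59 with YAP-5SA and 0.26 and 0.13 with TAZ-4SA and was 4.5-fold higher (adjusted p = 0.0109). The commoner glycolytic enzyme genes had smaller differences that did not pass: 0.87 for Pgk1, 0.89 for Pfkp, 0.54 for Tpi1, 0.43 for Aldoa, 0.34 for Gapdh and 0.31 for Ldha. Aldoc, the brain isoform of aldolase, ran the other way at -1.05 (adjusted p = 0.0615). Pygl, which frees glucose from glycogen and is not on the list, stood at 1.54 and 1.36 with YAP-5SA and -0.41 and -0.76 with TAZ-4SA and was 4.1-fold higher (adjusted p = 0.0109). Slc2a1 and Hk2 did not pass without the first TAZ-4SA array (adjusted p = 0.0581 and 0.0558), nor Slc2a1 without the second (0.0617). Pgk1, Pfkp and, as lower, Aldoc passed without the first YAP-5SA array (adjusted p = 0.0193, 0.0151 and 0.00617) and in the fit to all 14 arrays (0.00549, 0.00798 and 0.0126).

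Among genes known mainly as hypoxia markers, Egln3, Adm, Ndrg1 and Bnip3 passed as higher. Egln3, a prolyl hydroxylase that marks HIF for degradation, stood at 1.28 and 1.57 with YAP-5SA and -0.61 and -0.65 with TAZ-4SA, a difference of 2.05 (SE 0.16, adjusted p = 0.00957). Adm, which encodes the vasodilator peptide adrenomedullin, was 3.77-fold higher (adjusted p = 0.0118). Ndrg1 differed by 1.46 and Bnip3, which promotes removal of mitochondria, by 1.18, and both passed (adjusted p = 0.0358 and 0.0321). Bnip3 did not pass without the second TAZ-4SA array (adjusted p = 0.0844), and Ndrg1 did not pass after quantile normalization (0.0639) or in a fit to all 14 arrays (0.0719). Car9 and Ankrd37 differed by 0.98 and 1.26 without passing (adjusted p = 0.0644 and 0.092). Both passed without the first YAP-5SA array (adjusted p = 0.0113 and 0.00173), and Ankrd37 without the second (0.0476). Outside the list, Ero1a, which makes disulfide bonds in the endoplasmic reticulum, stood at 1.29 and 1.82 with YAP-5SA and -0.51 and -0.83 with TAZ-4SA and was 4.67-fold higher (adjusted p = 0.0159). Vegfa, the angiogenic growth factor, stood at 1.91 and 1.68 with YAP-5SA and 0.25 and 0.05 with TAZ-4SA and was 3.13-fold higher (adjusted p = 0.0159). Ndufa4l2, which lowers mitochondrial oxygen use, differed by 1.59, and Pdk4, a kinase that shuts pyruvate out of mitochondria, by 1.49 (adjusted p = 0.0399 and 0.0159). The 21 measured respiratory chain genes had a median difference of -0.02, and 0 passed. Oxygen in the cultures and cell density were not analysed here.

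HIF can bind DNA at a core of the letters ACGTG. Only this form of the core was searched for, in the 250 bases upstream of a gene's start. Both strands were searched (the other strand reads CACGT). Among 15683 genes of the comparison with a RefSeq promoter (GRCm38.p6), 18.2% held it. Of the 22 glycolysis and hypoxia genes with a promoter in the table, 11 held it (50%). Among genes past the test it stood in 20 of 67 that were higher (29.9%) and in 12 of 78 that were lower (15.4%). A match describes letters and is no evidence of binding. Upstream sequences of 3 members past the test are shown 5′ to 3′ on the gene's own strand, ending at the base before the start, with the core in capitals. In Bnip3 the core reads on both strands at once, as the letters CACGTG, which other factors also bind.
Slc2a1 (GRCm38.p6 chr4:119108495-119108744, plus strand): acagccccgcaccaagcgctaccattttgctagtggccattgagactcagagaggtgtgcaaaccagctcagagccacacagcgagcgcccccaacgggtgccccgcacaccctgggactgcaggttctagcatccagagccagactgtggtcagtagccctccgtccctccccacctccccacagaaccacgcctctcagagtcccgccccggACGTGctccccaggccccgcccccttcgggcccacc
Bnip3 (GRCm38.p6 chr7:138909507-138909756, minus strand): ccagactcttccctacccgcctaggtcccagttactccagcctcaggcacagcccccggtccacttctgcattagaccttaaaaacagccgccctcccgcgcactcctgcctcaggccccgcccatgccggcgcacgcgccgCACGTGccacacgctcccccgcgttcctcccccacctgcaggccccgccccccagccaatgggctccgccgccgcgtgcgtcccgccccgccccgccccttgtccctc
Hk2 (GRCm38.p6 chr6:82774455-82774704, minus strand): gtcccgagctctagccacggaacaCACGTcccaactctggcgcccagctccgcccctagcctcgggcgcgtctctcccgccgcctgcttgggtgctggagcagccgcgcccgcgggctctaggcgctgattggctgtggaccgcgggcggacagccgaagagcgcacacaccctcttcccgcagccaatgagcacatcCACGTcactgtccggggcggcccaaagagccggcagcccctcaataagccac

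**Figure D2:**
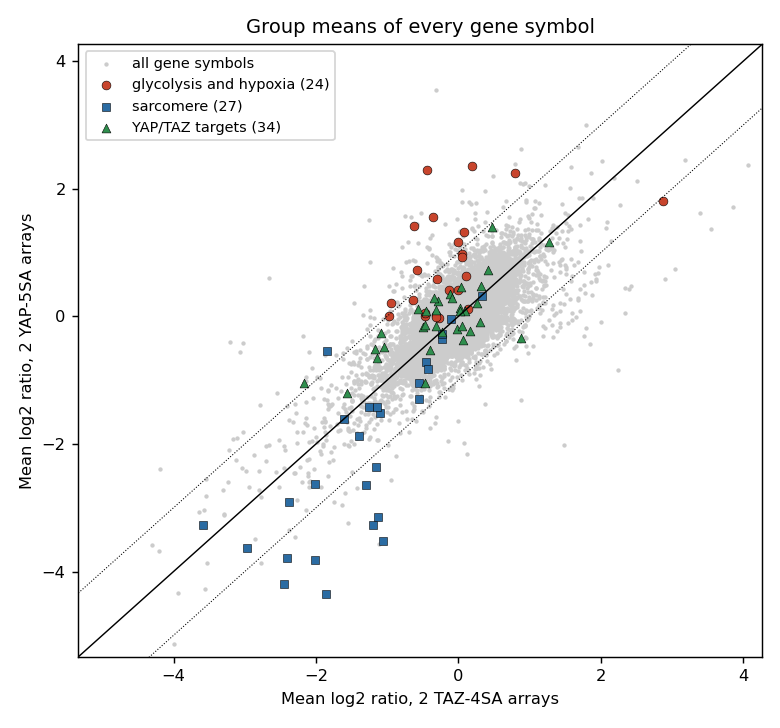
Mean log2 ratio of the 2 YAP-5SA arrays (y axis) against that of the 2 TAZ-4SA arrays (x axis) for each gene symbol, with 3 lists in colour, a solid line at equal values and dotted lines at 2-fold differences. Glycolysis and hypoxia genes (24) lie mostly above the solid line, 9 sarcomere genes lie below the lower dotted line, and the YAP/TAZ target genes (34) stay mostly between the dotted lines.

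Sarcomere genes encode the parts of the contractile fibre that reprogrammed cells build, and 9 of them were lower with YAP-5SA than with TAZ-4SA. Of 27 measured members, 9 passed the test as lower and 1 as higher, against 0.493% and 0.402% of all features. Arrays did not overlap in 19 that were lower and 1 that was higher, against 23.9% and 21.8% of all features. The median difference was -0.49. The list's median ratio was -1.74 and -2.06 with YAP-5SA and -1.19 and -1.21 with TAZ-4SA. Fewer reprogrammed cells and less RNA per reprogrammed cell cannot be told apart in whole cultures.

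The genes with the lowest differences included myosin chains of the thick filament. Myh6, the alpha myosin heavy chain of the mouse heart, stood at -3.41 and -3.63 with YAP-5SA and -1.07 and -1.06 with TAZ-4SA, so it was 5.49-fold lower with YAP-5SA (log2 difference -2.46, SE 0.15, adjusted p = 0.00666). Myh7, its fetal counterpart in the mouse, stood at -2.96 and -3.33 with YAP-5SA and -1.10 and -1.15 with TAZ-4SA and was 4.05-fold lower (adjusted p = 0.0109). These genes are neighbours with closely related sequence, and how the probes tell them apart was not tested. The light chain gene Myl7, typical of the atrium, stood at -4.25 and -4.47 with YAP-5SA and -1.94 and -1.77 with TAZ-4SA and was 5.67-fold lower (adjusted p = 0.00666), and Myl4, the other atrial light chain, differed by -1.82 (adjusted p = 0.0118). The ventricular light chain genes Myl2 and Myl3 differed by 0.06 and -0.01, and their arrays overlapped. Of the M-band and Z-disc genes, Myom2 differed by -1.75, the giant spring Ttn by -1.39 and alpha-actinin Actn2 by -1.34, and each passed (adjusted p = 0.0133, 0.0351 and 0.0323). Without the second TAZ-4SA array neither Ttn nor Actn2 passed (adjusted p = 0.0562 for both), and Ttn did not pass after quantile normalization (0.0792).

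On the thin filament Actc1, cardiac alpha-actin, stood at -3.27 and -3.27 with YAP-5SA and -1.18 and -1.23 with TAZ-4SA and was 4.19-fold lower with YAP-5SA (adjusted p = 0.0068). Tnnc1, the calcium-binding troponin, differed by -1.21 (adjusted p = 0.0269). It did not pass without the second TAZ-4SA array (adjusted p = 0.0562). Tnnt2, cardiac troponin T, stood at -0.82 and -1.27 with YAP-5SA and -0.53 and -0.58 with TAZ-4SA, a difference of -0.49 that did not pass (SE 0.18, adjusted p = 0.323). The 1 member higher past the test was Des, the intermediate filament desmin, which stood at -0.43 and -0.64 with YAP-5SA and -1.90 and -1.79 with TAZ-4SA and was 2.47-fold higher with YAP-5SA (adjusted p = 0.024). Desmin is also made in smooth muscle and in some fibroblasts.

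Genes for calcium handling and excitation were split. Pln, phospholamban, which brakes the calcium pump of the sarcoplasmic reticulum, stood at -1.57 and -1.69 with YAP-5SA and -0.21 and 0.20 with TAZ-4SA and was 3.09-fold lower with YAP-5SA (SE 0.18, adjusted p = 0.0219). Trdn, triadin, and Srl, sarcalumenin, both proteins of the calcium store, differed by -1.32 and -1.69 (adjusted p = 0.0454 and 0.0488). Popdc2, which binds cyclic AMP in heart cells, differed by -1.32 (adjusted p = 0.0269). At most 2 of the genes past the test named here are on the calcium and channel list, and Srl is outside it. The calcium release channel Ryr2 (-0.57) and the pacemaker channel Hcn4 (-0.60) did not pass. In all, 2 of 24 measured members of the calcium and channel list were lower past the test and 0 higher, with 4 lower without the first YAP-5SA array and 1 without the second TAZ-4SA array. Mb, myoglobin, and Smyd1, a muscle methyltransferase needed for sarcomere assembly, differed by -1.15 and -0.97 (adjusted p = 0.0271 and 0.0427). The natriuretic peptide gene Nppa stood at -5.46 and -4.82 with YAP-5SA and -3.73 and -4.26 with TAZ-4SA, a difference of -1.14 that did not pass (adjusted p = 0.134). Of 21 measured cardiac transcription factors 0 passed, which is near the share of all features. The median of these factors was -0.04, or -0.19 without the first YAP-5SA array. Their lowest value was that of Myocd, the SRF partner myocardin, at -1.03 (adjusted p = 0.201). Myocd and the channel Hcn4 passed as lower without the first YAP-5SA array (adjusted p = 0.01 and 0.0409), and Nppa without the second (0.0185). Outside that list Hey2, a Notch target of ventricular muscle, passed as lower at -1.09 (adjusted p = 0.0372). Without the first TAZ-4SA array Mb, Smyd1 and Hey2 did not pass (adjusted p = 0.0509, 0.0815 and 0.092), nor did they or Trdn without the second (0.0588, 0.151, 0.0615 and 0.0852). After quantile normalization Srl, Popdc2, Mb and Smyd1 did not pass (adjusted p = 0.138, 0.115, 0.11 and 0.116). The 24 measured skeletal muscle genes had a median of -0.12, and 0 passed, again near the share of all features.

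TEAD factors bind the letters GGAATG, an element that muscle promoters and YAP/TAZ targets share. On either strand (CATTCC on the other), it stood within 250 bases upstream of the start in 11.5% of the 15683 promoters. It stood in 9 of 24 sarcomere genes (37.5%) and in 8 of 22 YAP/TAZ target genes (36.4%). Such shares were not particular to these lists. Smooth muscle and myofibroblast genes held it in 6 of 11 (54.5%), and YAP, TAZ and their partners in 6 of 8 (75%). Calcium and channel genes held it in 0 of 17. A match describes letters and is no evidence of binding. Among genes past the test the share was 14.9% for those higher with YAP-5SA and 15.4% for those lower. The upstream sequences of 3 sarcomere genes lower past the test and of 3 YAP/TAZ target genes that did not pass show the element in capitals.
Myh6 (GRCm38.p6 chr14:54966608-54966857, minus strand): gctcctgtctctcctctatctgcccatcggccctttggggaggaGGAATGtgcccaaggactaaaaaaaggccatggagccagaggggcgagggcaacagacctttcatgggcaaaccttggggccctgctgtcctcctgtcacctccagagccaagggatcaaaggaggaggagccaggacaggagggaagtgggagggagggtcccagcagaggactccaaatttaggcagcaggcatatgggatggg
Myh7 (GRCm38.p6 chr14:54994627-54994876, minus strand): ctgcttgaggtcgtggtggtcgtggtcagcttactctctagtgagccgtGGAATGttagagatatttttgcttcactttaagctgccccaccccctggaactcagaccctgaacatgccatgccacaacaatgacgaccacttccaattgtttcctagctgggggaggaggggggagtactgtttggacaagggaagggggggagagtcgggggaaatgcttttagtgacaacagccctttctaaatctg
Myl7 (GRCm38.p6 chr11:5898783-5899032, minus strand): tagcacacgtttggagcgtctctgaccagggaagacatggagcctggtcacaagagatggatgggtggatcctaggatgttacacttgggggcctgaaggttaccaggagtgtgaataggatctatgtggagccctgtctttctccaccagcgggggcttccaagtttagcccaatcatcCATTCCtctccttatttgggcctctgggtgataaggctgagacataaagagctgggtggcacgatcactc
Ccn1 (GRCm38.p6 chr3:145649986-145650235, minus strand): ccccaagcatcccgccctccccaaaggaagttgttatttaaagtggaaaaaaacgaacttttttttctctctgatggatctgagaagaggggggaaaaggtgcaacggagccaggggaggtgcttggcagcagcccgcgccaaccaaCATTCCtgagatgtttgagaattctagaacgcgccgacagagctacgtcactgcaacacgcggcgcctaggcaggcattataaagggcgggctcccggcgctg
Ankrd1 (GRCm38.p6 chr19:36119845-36120094, minus strand): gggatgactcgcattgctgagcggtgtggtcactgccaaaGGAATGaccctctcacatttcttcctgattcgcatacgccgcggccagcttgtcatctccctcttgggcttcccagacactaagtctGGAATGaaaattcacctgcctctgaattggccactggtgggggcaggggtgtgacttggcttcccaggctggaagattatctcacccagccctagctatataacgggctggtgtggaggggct
Amotl2 (GRCm38.p6 chr9:102717554-102717803, plus strand): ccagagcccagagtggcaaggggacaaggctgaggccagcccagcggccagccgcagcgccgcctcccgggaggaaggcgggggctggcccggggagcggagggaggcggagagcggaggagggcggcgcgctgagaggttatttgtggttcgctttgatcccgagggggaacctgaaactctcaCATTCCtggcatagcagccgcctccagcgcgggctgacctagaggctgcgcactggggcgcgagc

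Of 34 measured YAP/TAZ target genes, 0 were higher past the test and 1 lower, with a median difference of 0.32. Over all features 0.402% passed as higher and 0.493% as lower. Arrays did not overlap in 16 members that were higher and 7 that were lower, against 21.8% and 23.9% of all features. With no adjustment, 12 members higher and 3 lower had a p under 0.05, against 1450 and 1548 of the 22127 features. When the first YAP-5SA array was left out, 5 passed as higher and 2 as lower. In the fit to all 14 arrays 5 passed as higher, Ccn1 among them (adjusted p = 0.0236), and 1 passed as higher after centring, after quantile normalization, without the second YAP-5SA array, with array weights and over single-symbol features. Ccn1 and Ccn2 encode the matricellular proteins CYR61 and CTGF, the most used readouts of YAP and TAZ. Ccn1 stood at -0.52 and -0.51 with YAP-5SA and -1.10 and -1.23 with TAZ-4SA, a difference of 0.65 (SE 0.14, adjusted p = 0.113), and Ccn2 at -0.62 and -0.34 with YAP-5SA and -1.03 and -1.06 with TAZ-4SA, a difference of 0.56 (SE 0.16, adjusted p = 0.199). In both genes each YAP-5SA array lay above each TAZ-4SA array, but the differences did not pass the test.

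Nt5e, the ecto-enzyme CD73 that makes adenosine, had the largest difference upward on the list at 1.12 (SE 0.18, adjusted p = 0.053). It passed after centring (adjusted p = 0.049), after quantile normalization (0.0379), over single-symbol features alone (0.046), with array weights (0.0451), in the fit to all 14 arrays (0.00407) and without the first or the second YAP-5SA array (0.00619 and 0.045). Gadd45b and the EGF-type ligand Ereg differed by 0.92 and 0.82 (adjusted p = 0.143 and 0.104). Without the first YAP-5SA array these passed (adjusted p = 0.00809 and 0.0228), as they did in the fit to all 14 arrays (0.0443 and 0.0217). Feedback genes of the Hippo pathway had smaller values, 0.54 for Amotl2, 0.54 for Lats2 and 0.47 for Ajuba. Ankrd1, a target that is also a cardiac stress gene, differed by 0.36 (adjusted p = 0.354). The member lower past the test was Fgf1, a growth factor, which stood at -0.27 and -0.40 with YAP-5SA and 0.64 and 1.12 with TAZ-4SA (log2 difference -1.22, adjusted p = 0.049). It did not pass without the second TAZ-4SA array (adjusted p = 0.118) or with array weights (0.0516). Of 10 measured genes for YAP, TAZ and their TEAD and VGLL partners 0 passed, with a median of 0.12. Of the CCN family beyond the targets, Ccn3 (-0.93) and Ccn5 (-0.23) lay below 0 without passing, and Ccn3 passed as lower without the first YAP-5SA array (adjusted p = 0.0041). Among 23 measured Hippo kinases, adaptors and angiomotins 0 passed, with a median of 0.06. In lists as short as these, a count of 0 is near the share of all features.

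Immediate early genes respond within minutes to growth factors and stress. AP-1, the dimer of Fos and Jun proteins, often shares enhancers with TEAD. Of 19 measured members, 3 passed as higher and 0 as lower, against 0.402% and 0.493% of all features. Arrays did not overlap in 12 that were higher and 0 that were lower, against 21.8% and 23.9% of all features. The median was 0.36. Ier3, a survival gene, stood at -0.75 and 0.14 with YAP-5SA and -2.25 and -2.13 with TAZ-4SA and differed by 1.88 (SE 0.28, adjusted p = 0.0435). Maff, a small Maf factor, stood at 0.03 and 0.37 with YAP-5SA and -1.51 and -1.43 with TAZ-4SA and differed by 1.67 (adjusted p = 0.0168). The nuclear receptor Nr4a3 differed by 1.30 (adjusted p = 0.0397). Nr4a3 did not pass without the second TAZ-4SA array (adjusted p = 0.0773), and without the first YAP-5SA array 7 members passed, with Junb and Fos among them (0.0131 and 0.0222). The AP-1 subunits Junb (0.95), Fos (0.67) and Jun (0.27) did not pass, and the arrays of Fosl1 (-0.10) overlapped between groups. The AP-1 element TGACTCA, searched on both strands, stood in 5 of 67 promoters of genes higher past the test (7.46%), against 4.02% of all.

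Among prostaglandin genes 2 passed as higher and 1 as lower with YAP-5SA, and 4 passed as higher without the first YAP-5SA array. Ptgs2, the inducible cyclooxygenase COX-2 that begins prostaglandin synthesis, stood at -0.57 and -0.56 with YAP-5SA and -3.02 and -3.11 with TAZ-4SA. The arrays of each group lay close together, and the gene was 5.67-fold higher with YAP-5SA (log2 difference 2.50, SE 0.14, adjusted p = 0.00659). Ptger4, the EP4 receptor for prostaglandin E2, stood at 0.38 and 0.56 with YAP-5SA and -1.31 and -1.33 with TAZ-4SA and was 3.46-fold higher (adjusted p = 0.0109). Hpgd, the dehydrogenase that inactivates prostaglandins, stood at -1.75 and -1.76 with YAP-5SA and -0.34 and -0.45 with TAZ-4SA and was 2.56-fold lower (adjusted p = 0.0174). Hpgd did not pass in the fit to all 14 arrays (adjusted p = 0.27). The phospholipase gene Pla2g4a, which releases the substrate, differed by 1.04, and the synthase Ptges by 0.56, without passing. Pla2g4a passed in the fit to all 14 arrays (adjusted p = 0.0174) and without the first YAP-5SA or the second TAZ-4SA array (0.0248 and 0.0455). Ptger3 passed without the first YAP-5SA array (0.0409) and in the fit to all 14 arrays (0.0226). The other 8 of 13 measured members lay between -0.55 (Ptgds) and 0.70 (Ptger3).

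**Figure D3:**
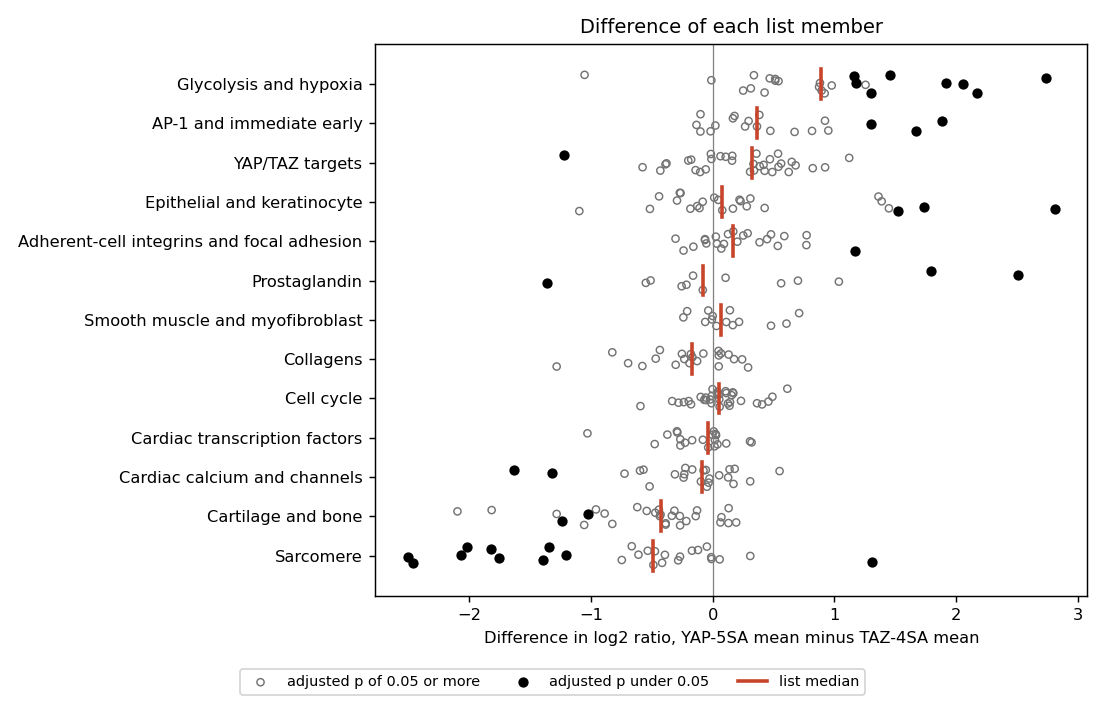
Difference in log2 ratio, YAP-5SA mean minus TAZ-4SA mean (x axis), of each measured member of 13 gene lists (rows), with filled points for an adjusted p under 0.05, open points for the rest and a red bar at the list median. Medians run from -0.49 for the sarcomere to 0.89 for glycolysis and hypoxia.

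Vnn1, which encodes the pantetheinase vanin-1, stood at 0.20 and 0.99 with YAP-5SA and -2.64 and -2.67 with TAZ-4SA and was 9.55-fold higher with YAP-5SA (SE 0.25, adjusted p = 0.00994), the largest difference upward among genes with an established name. 2610528A11Rik, known by a clone name, stood higher still at 2.89 and 4.21 with YAP-5SA and -0.23 and -0.40 with TAZ-4SA (log2 difference 3.87, adjusted p = 0.0168). Upk1b, a tetraspanin of urothelial plaques that mesothelium also makes, stood at -0.64 and -0.15 with YAP-5SA and -3.18 and -3.23 with TAZ-4SA and was 7.02-fold higher (adjusted p = 0.0068). Its relative Upk3b differed by 1.52, the simple epithelial keratin Krt7 by 1.74 and Scel, sciellin, by 1.93, and each passed (adjusted p = 0.0204, 0.0159 and 0.0109). Msln (1.45), Krt18 (1.36) and Krt19 (1.39) did not pass. They passed without the first YAP-5SA array (adjusted p = 0.00761, 0.00266 and 0.00351) and in the fit to all 14 arrays (0.0145, 0.00759 and 0.0497). On the epithelial and keratinocyte list 3 of 25 were higher past the test and 0 lower, with a median of 0.08. Epcam (0.05), Cdh1 (-0.13) and Krt5 (-0.44), which define epithelia, did not pass. Without the first YAP-5SA array 7 members of the list were higher past the test. Hsd3b6, an enzyme of steroid synthesis with closely alike relatives, stood at -0.35 and -0.48 with YAP-5SA and -3.63 and -2.43 with TAZ-4SA and was 6.12-fold higher (adjusted p = 0.0365). The osmolyte transporter Slc6a12 was 4.99-fold higher (adjusted p = 0.0168). Itga3, a laminin receptor subunit, differed by 1.17 and was the only 1 of 23 measured integrin and focal adhesion genes past the test. Without the second TAZ-4SA array it did not pass (adjusted p = 0.0984). Procr, the endothelial protein C receptor, and Fstl3, an activin-binding protein, differed by 1.64 and 1.67 (adjusted p = 0.0109 and 0.043).

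Of 29 measured cartilage and bone genes 2 passed as lower and 0 as higher, against 0.493% and 0.402% of all features. Arrays did not overlap in 20 that were lower and 1 that was higher, against 23.9% and 21.8% of all features. The list's median was -0.43. Sox9, the master transcription factor of cartilage, stood at -0.29 and -0.47 with YAP-5SA and 0.81 and 0.91 with TAZ-4SA, a difference of -1.24 (SE 0.15, adjusted p = 0.0261). The collagen IX genes, whose product coats cartilage fibrils, differed by -1.28 (Col9a1), -0.54 (Col9a2) and -1.02 (Col9a3), and Col9a3 passed (adjusted p = 0.0469). Epyc, a leucine-rich proteoglycan of cartilage outside that list, stood at -0.66 and -1.03 with YAP-5SA and 2.29 and 2.18 with TAZ-4SA and was 8.46-fold lower (SE 0.17, adjusted p = 0.00659). Ecm2, another leucine-rich matrix protein, stood at 0.22 and -0.12 with YAP-5SA and 2.38 and 2.30 with TAZ-4SA and was 4.89-fold lower (adjusted p = 0.00753). Omd and Dmp1, of bone matrix, differed by -1.74 and -1.81 without passing. Omd passed with any of the 4 arrays left out (adjusted p = 0.029, 0.05, 0.0367 and 0.0012) and in the fit to all 14 arrays (0.0251). Dmp1 passed after quantile normalization (0.0384), in the fit to all 14 arrays (0.00798) and without either YAP-5SA array or the second TAZ-4SA array (0.0187, 0.004 and 0.0154). Col9a1 passed in the same settings other than quantile normalization (0.0117, 0.0255, 0.00898 and 0.0406). Ibsp, bone sialoprotein, stood at -0.24 and 0.05 with YAP-5SA and 4.43 and -0.44 with TAZ-4SA, so 1 TAZ-4SA array makes its mean, and without the second TAZ-4SA array it passed as lower (adjusted p = 2.15e-05). Among secreted Wnt antagonists Sfrp4 and Sfrp5 passed as lower, with Sfrp4 at -2.31 and -1.67 with YAP-5SA and -0.05 and 0.22 with TAZ-4SA (4.2-fold lower, adjusted p = 0.0221) and Sfrp5 at a difference of -1.55 (adjusted p = 0.0406). The ligand Wnt11 was higher by 1.05 (adjusted p = 0.045). The BMP target Id1 passed as lower at -0.94 (adjusted p = 0.043). Without the first TAZ-4SA array Col9a3, Wnt11 and Id1 did not pass (adjusted p = 0.127, 0.0748 and 0.107). Without the second, neither these nor Sox9 passed (0.0844, 0.123, 0.147 and 0.0532). The list's count of lower members past the test was 1 without the first TAZ-4SA array and 6 and 5 without the first and the second YAP-5SA array.

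On the fibroblast identity, collagen and smooth muscle lists 0 genes passed the test. Over all features 0.402% passed as higher and 0.493% as lower, so a count of 0 in lists of this size is near that share. Col1a1, the main fibrillar collagen gene, stood at 0.72 and 0.49 with YAP-5SA and 0.62 and 0.45 with TAZ-4SA, a difference of 0.07 (SE 0.16), and the surface marker Thy1 differed by 0.01 (SE 0.16). Of the 22 measured genes of the collagen list 0 passed, with a median of -0.17. That list leaves out Col9a3, which passed as lower. Of 18 fibroblast identity genes and 14 smooth muscle and myofibroblast genes 0 passed, with medians of -0.03 and 0.07. The 33 cell cycle genes had a median of 0.05 and the 29 interferon response genes one of -0.16, with 0 past the test in each. Lower past the test without the first YAP-5SA array were 2 collagen genes and 1 interferon response gene. With 2 arrays per group the median SE of a difference was 0.16, and differences well above that did not pass. The fibroblast gene Cd34 differed by 0.62 with arrays that did not overlap (adjusted p = 0.118). Of the genes past the test, 77 of 82 higher and 96 of 106 lower were at least 2-fold apart. Differences under 2-fold in these lists could therefore be missed. Of 24 measured matrix proteases and their inhibitors 2 passed as lower and 0 as higher. They were the protease Mmp16 and the inhibitor Timp4, which differed by -1.09 and -1.07 (adjusted p = 0.0414 and 0.0323). Without the first TAZ-4SA array neither passed (adjusted p = 0.108 and 0.0628), nor did Timp4 without the second (0.0849). Car3, a carbonic anhydrase of muscle and fat, stood at -2.91 and -1.12 with YAP-5SA and 1.68 and 1.28 with TAZ-4SA and was 11.3-fold lower (SE 0.52, adjusted p = 0.0435), the largest difference downward of any gene. Apod, a lipid-binding lipocalin, was 5.51-fold lower (adjusted p = 0.0068). The fat-cell lipid carrier Fabp4 ran the other way, higher by 1.54 (adjusted p = 0.0219).

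Macrophage markers did not separate the mutants but separated the YAP-5SA arrays from each other. Cultures of embryonic fibroblasts can hold macrophages, and 27 markers of macrophages and leukocytes were measured. Their median ratio was -2.71 and -0.99 in the YAP-5SA arrays, against -2.09 and -2.60 in the TAZ-4SA arrays. Lyz2, lysozyme, stood at -5.16 and -0.90 with YAP-5SA and -2.48 and -4.66 with TAZ-4SA, and Mrc1, the mannose receptor, at -3.72 and -1.38 with YAP-5SA and -3.58 and -3.52 with TAZ-4SA. In these genes the second YAP-5SA array was the highest and the first YAP-5SA array was near or below the TAZ-4SA arrays. Arrays did not overlap in 2 markers in each direction, and 0 of 27 passed. Of all features 0.402% passed as higher and 0.493% as lower, so a count of 0 here is near that share. The difference of means was above 0 in 24 markers and below 0 in 3. With the first YAP-5SA array left out, the list's median difference was 1.31. In that setting Mrc1 differed by 2.17, Itgb2 by 1.01 and Mmp12, which is outside the list, by 3.64. The list's median difference was 0.56, and it was -0.18 without the second YAP-5SA array. Itgb2, a leukocyte integrin, stood at -1.18 and -0.14 with YAP-5SA and -0.91 and -1.39 with TAZ-4SA, and Mmp12, the macrophage elastase, at -4.23 and -0.55 with YAP-5SA and -3.96 and -4.42 with TAZ-4SA. Without the second YAP-5SA array the glycolysis and hypoxia median was 0.76 and the sarcomere median -0.37. The part of the macrophage transcripts in these lists was not tested.

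**Figure D4:**
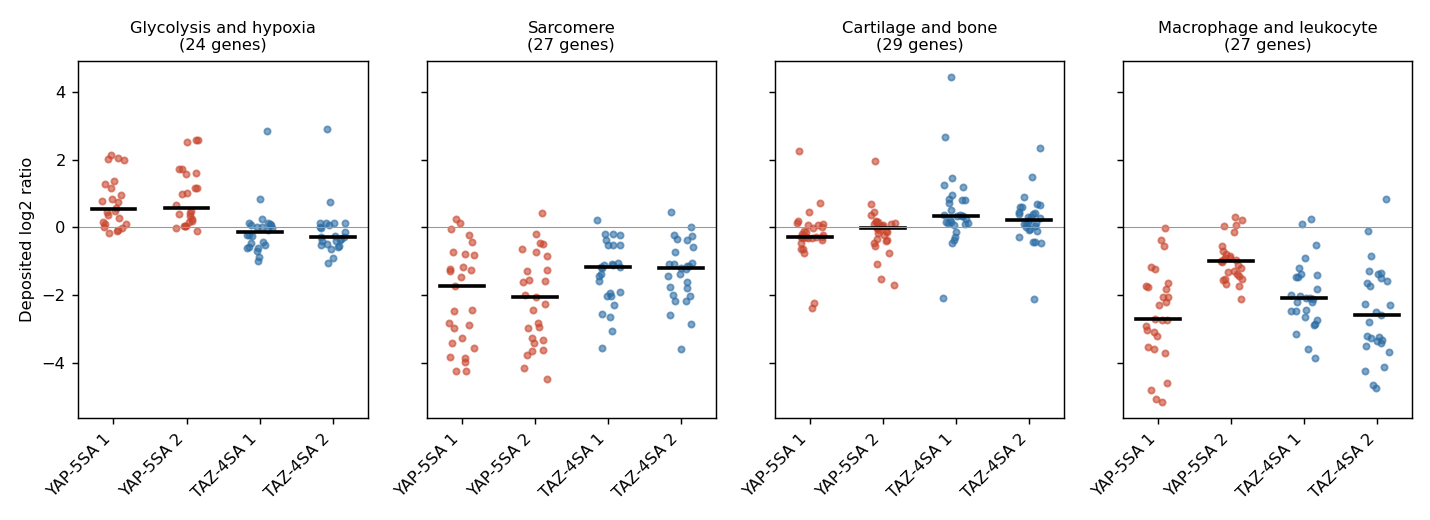
Deposited log2 ratio (y axis) of each measured member of 4 lists in each of the 4 arrays, with YAP-5SA arrays in red, TAZ-4SA arrays in blue and a black bar at the list median. The glycolysis and hypoxia and sarcomere medians separate the groups, while the macrophage median is highest in YAP-5SA array 2 (-0.99) and lowest in YAP-5SA array 1 (-2.71).

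Some genes best known from glia of the brain were lower past the test, while of 14 measured genes of the pericyte and glial list 1 passed as lower (Gfap) and 0 as higher, with a median of -0.07. Kcnj10, a potassium channel of astrocytes, stood at 0.53 and 0.63 with YAP-5SA and 2.56 and 3.24 with TAZ-4SA and was 4.99-fold lower with YAP-5SA (adjusted p = 0.0168). Mlc1, a membrane protein of astrocyte endfeet, stood at 1.27 and 0.21 with YAP-5SA and 2.84 and 3.26 with TAZ-4SA and was 4.94-fold lower (adjusted p = 0.043). Aqp4, the water channel of the endfeet, stood at 2.13 and 1.31 with YAP-5SA and 3.78 and 3.92 with TAZ-4SA and was 4.37-fold lower (adjusted p = 0.0275). The brain fatty acid carrier Fabp7 (-2.28), the brain proteoglycan Ncan (-2.17) and the synaptic adhesion gene Lrrtm4 (-2.27) passed as well (adjusted p = 0.0117, 0.0075 and 0.0068). The filament gene Gfap, which defines astrocytes, stood at 2.71 and 2.04 with YAP-5SA and 3.93 and 4.21 with TAZ-4SA and was 3.23-fold lower (adjusted p = 0.0397). After quantile normalization Gfap and Aqp4 did not pass (adjusted p = 0.159 and 0.0733), nor Gfap in the fit to all 14 arrays (0.0599). Kcnj10, Mlc1, Aqp4 and Ncan stood above the shared reference in all 4 arrays. Of 19 neuronal genes 0 passed, with a median of -0.26.

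The same genes were set beside the knockdowns of the same study, in which GHMT-treated fibroblasts on 126 kPa hydrogel received shRNA against YAP (GHMT/shYAP) or TAZ (GHMT/shTAZ), with 2 arrays each. These arrays are not shared with the mutants, and the value given is the shYAP mean minus the shTAZ mean, with no test. Across 22122 features the mutant difference and the knockdown difference correlated at r = -0.18, given as a description since features within arrays are not independent. Of the glycolysis and hypoxia genes, 20 of 24 were lower with shYAP than with shTAZ, against 46.9% of all features, with a median of -0.22. The knockdown difference was -0.68 for Slc2a3, -0.69 for Slc2a1, -0.80 for Hk2, -0.60 for Egln3, -1.33 for Ero1a and -0.70 for Vegfa, each opposite in sign to the mutant difference. Adm (0.07) was close to 0. Of the sarcomere genes, 22 of 27 were higher with shYAP, against 53.1% of all features, with a median of 0.25. Such a skew was not particular to these 2 lists. Lower with shYAP were 18 of 18 cholesterol pathway genes and 14 of 14 smooth muscle and myofibroblast genes (medians -0.21 and -0.30). Higher were 17 of 21 respiratory chain genes (median 0.14). The mutant medians of these lists were -0.02, 0.07 and -0.02.

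In the sarcomere the knockdown difference was 0.49 for Myh6, 0.68 for Myl4 and 0.80 for Ttn, and 5 of 27 genes lay below 0, with Des at -0.83. Pln, of the calcium store, differed by 0.89. Myl7 (0.05) was close to 0. Ptgs2 differed by -0.79 and Hpgd by 1.17, again opposite to the mutants, while Ptger4 differed by 0.46 in the same direction. Ccn1 and Ccn2 differed by -0.31 and -0.39. In the knockdown arrays 27 of 27 macrophage markers were higher with shYAP (median 1.63), and Yap1 itself differed by -1.01 and Wwtr1 by 0.44. The part of the macrophage difference in the other knockdown values was not tested.

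**Figure D5:**
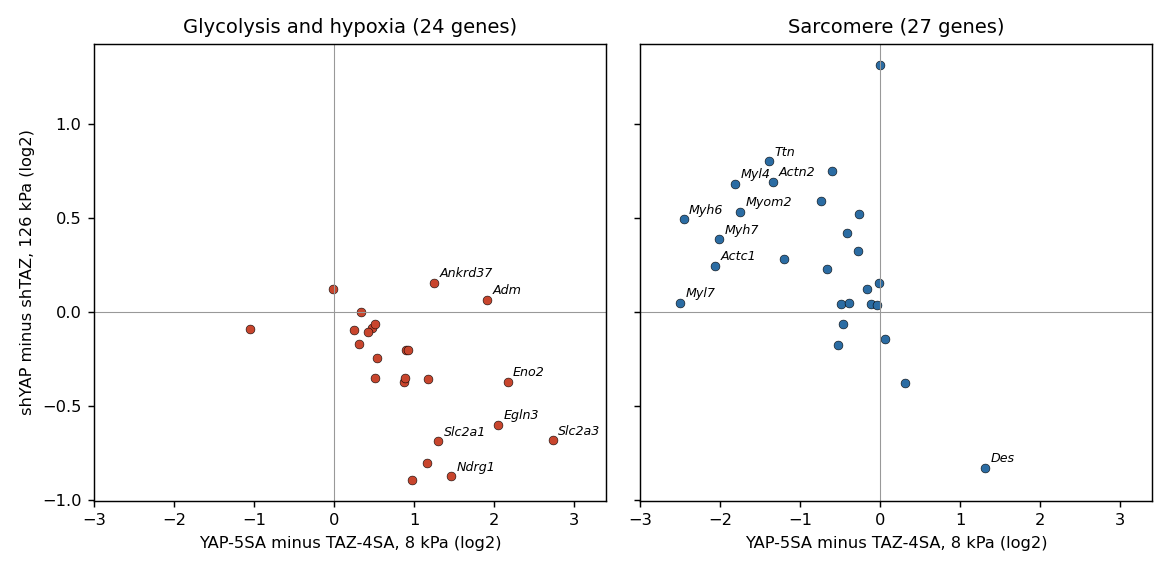
Difference of the knockdowns on 126 kPa, shYAP mean minus shTAZ mean (y axis, log2), against that of the active mutants on 8 kPa, YAP-5SA mean minus TAZ-4SA mean (x axis, log2), for each gene of 2 lists. Of the glycolysis and hypoxia genes 20 of 24 lie below 0 on the y axis, and of the sarcomere genes 22 of 27 lie above it.

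The comparison of stiffness without mutants was set beside the same genes. In the 2 GHMT/8 kPa arrays against the 2 GHMT/126 kPa arrays, the difference over all features correlated with the mutant difference at r = 0.04. The sarcomere list had a median of -0.01 on 8 kPa minus 126 kPa, and Myh6 differed by -0.16. The glycolysis and hypoxia list had a median of 0.33, with Egln3 at 0.36 and Slc2a3 at -0.15.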

How the data were processed

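RNA of GHMT-transduced MEFs was hybridised to Clariom S Mouse arrays, 1 per biological sample, and processed by the authors with Affymetrix Expression Console 1.4 per the labels. The deposited values are log2 ratios, which the authors made in separate sets of arrays. The reference of the mutant set, the background correction and the probe annotation are not given in the sources used here. No signal intensity was used here, so no filter on dim features was possible. Precision rests on the number of arrays. Groups and replicate numbers were taken from the labels, which describe the replicates as independent biological samples.

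Differences (YAP-5SA mean minus TAZ-4SA mean) were tested with limma 3.58.1 (lmFit and eBayes, R 4.3.3) on the 2 arrays of each group, with no covariate, which leaves 2 residual and 4.77 prior degrees of freedom. P-values were two-sided and were adjusted by Benjamini-Hochberg over 22127 features. An exact permutation test of 2 against 2 arrays cannot go below p = 0.333 and was not used. Alternatives were centring, quantile normalization, each array left out, array weights, a block for the replicate number, a fit to all 14 arrays, robust empirical Bayes, single-symbol features alone and a stricter 2-fold rule.

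Named genes are those of the article, the top 12 upward and the top 12 downward by size of difference among genes past the test that were at least 2-fold changed and of 1 sign in all array pairs (predicted genes and sensory receptors left out), and up to 4 members of each of 46 gene lists. Further genes were chosen after their values were seen. The comparison, its genes and the lists were chosen with earlier results of these data known. An item that the naming rule covers is not reported here. Promoters are from RefSeq (GRCm38.p6), matched by symbol for 15683 genes, with matplotlib 3.10.9 used for plots.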

Additional observations from a re-analysis of the deposited data

How the results depend on the processing

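Counts of features past the test (89 higher, 109 lower) depended on which arrays gave the spread. They ranged from 75 to 465 higher and from 68 to 416 lower with 1 of the 4 arrays left out, and were 303 and 244 when all 14 arrays were fitted together. With the replicate block 136 passed as higher and 158 as lower. The labels do not say that a replicate number marks a shared batch, and deviations of same-numbered arrays correlated at 0.15 over 2 pairs, so the pairing is not established. The block removed no call of a named gene, leaving out genes named only as members of a list. Features at least 2-fold apart (157 higher, 155 lower) ranged from 129 to 255 and from 162 to 223 with 1 array left out, and were 64 and 68 when all 4 differences between single arrays had to reach 2-fold. Centring, quantile normalization, array weights, robust empirical Bayes and single-symbol features alone left these counts within 1.5 times where they were run.

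Of 136 named genes 75 passed the test, and 47 of them passed under every alternative. Quantile normalization ended 9 calls, array weights 2, the fit to all 14 arrays 4, and leaving out the first and the second TAZ-4SA array 10 and 20. Leaving out a YAP-5SA array, centring, the block, robust empirical Bayes and single-symbol features alone ended 0. Named genes that passed only under an alternative numbered 24 without the first YAP-5SA array, 7 without the second, 2 and 6 without the first and the second TAZ-4SA array, 15 in the fit to all 14 arrays, 5 with the block, 2 after quantile normalization, and 1 each with centring, array weights and single-symbol features. The cause of these changes was not tested. The counts leave out genes named only as members of a list.

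Among these 136 genes the sign turned only in genes that had not passed. Col1a1 was -0.0014 after quantile normalization and Myl3 was 0.0057 after centring. With 1 array left out, Itgb2 ranged from -0.031 to 1.01, Col1a1 from -0.046 to 0.18, Thy1 from -0.13 to 0.15, Mmp12 from -0.045 to 3.64 and Mrc1 from -0.17 to 2.17. Ibsp ranged from -4.53 to 0.34, Myl2 from -0.10 to 0.22, Myl3 from -0.14 to 0.12, Fosl1 from -0.44 to 0.24, Epcam from -0.14 to 0.24 and Lyz2 from -1.59 to 2.67. Genes near background were not set apart from the rest, and each group had 2 arrays.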

Other observations

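Reading down the genes past the test, glial genes recurred among those lower with YAP-5SA, and a list of 28 astrocyte genes was written after these values were seen, so its counts are a description with no test of the list. The pericyte and glial list written earlier had 1 of 14 members lower past the test. Of 26 measured members 12 were lower past the limma test and 0 higher, and the median difference was -0.87. Beside the genes already described, the glutamate transporter Slc1a2 stood at 0.99 and 0.62 with YAP-5SA and 1.94 and 2.27 with TAZ-4SA, and the adhesion gene Hepacam at 0.41 and 0.31 with YAP-5SA and 1.64 and 1.91 with TAZ-4SA. The neural stem cell factor Sox2 stood at 0.76 and 0.56 with YAP-5SA and 1.68 and 2.16 with TAZ-4SA. Without the second TAZ-4SA array Slc1a2 and Sox2 did not pass (adjusted p = 0.0849 and 0.101), nor Sox2 with array weights (0.0511). Gja1, the gap junction gene of astrocytes and of many other cells, differed by -0.13 and did not pass. The list's median ratio was 0.27 and 0.20 with YAP-5SA and 0.81 and 1.04 with TAZ-4SA. Of 15 measured oligodendrocyte and neuron genes, in a list added at the same time, 0 passed, with a median of -0.28. Sox9, Gfap and Fabp7 are also made outside the brain. Which cells made these transcripts was not analysed here.

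A mesothelial list was written in the same way, after Upk1b, Upk3b and Krt7 were seen among the genes higher with YAP-5SA. Of 15 measured members 3 were higher past the test, which are those same genes, and 0 lower, with a median of 0.43. Without the first YAP-5SA array 6 passed. Wt1, a transcription factor of mesothelium, differed by 0.43 (adjusted p = 0.3), and Bnc1, another, by -0.56. Among other genes past the test, Ptprb, a phosphatase of endothelium, was 3.69-fold higher with YAP-5SA (adjusted p = 0.0269). Ptprb and Procr are not on the endothelial list, of whose 19 measured genes 0 passed. Of these 13 lay below 0 and 6 above, with a median of -0.18. Adh1, an alcohol dehydrogenase that also oxidises retinol, was 3.69-fold higher with YAP-5SA (adjusted p = 0.0269). Pcolce2, which aids collagen processing, was 3.13-fold lower (adjusted p = 0.0109), and Sucnr1, the succinate receptor, 2.89-fold lower (adjusted p = 0.0492). Sucnr1 did not pass without the second TAZ-4SA array (adjusted p = 0.0691).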
